A study of Mus musculus with 9 samples.

Results

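The nonspecific lethal (NSL) complex is a chromatin complex that acetylates histones, and the genes described here are its 10 subunits: Kansl1, Kansl2, Kansl3, Phf20, Phf20l1, Mcrs1, Kat8, Wdr5, Hcfc1 and Ogt. They were taken by name, as the Ensembl identifiers that GENCODE M21 pairs with these symbols, and 10 of the 57180 identifiers in the count table belonged to them. All 10 had enough counts to be tested, among 13405 genes tested in all. Mouse small intestine was the tissue, and RNA-seq was run on intestinal stem cells sorted for green fluorescent protein (GFP) under Lgr5. The mice carried Lgr5-EGFP-CreERT2, an allele that places GFP and a tamoxifen-inducible Cre recombinase under the Lgr5 gene, so both are made in the stem cells of the crypt base. Cre acted on loxP-flanked Kansl1 alleles (Kansl1 f/f) in the knockout (KO) groups. KO day 3 mice received tamoxifen daily for 3 days and KO day 4 mice for 4 days, with 3 libraries in each group. The 3 control libraries came from mice given corn oil, and their genotype is labelled KANSL1-WT, while the design text names Kansl1 f/f mice once, before the treatments. Whether the controls carried the floxed alleles is therefore not settled by the labels. Kansl1 loss and tamoxifen went together and cannot be told apart, nor can the length of treatment and the time since the first dose. The labels do not say that the 3 libraries of a group came from separate animals, so the p-values measure only the spread between these libraries. The labels give no strain, sex or age.

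KAT8 is the acetyltransferase of the NSL complex, and it acts on histone H4. KANSL1 is the scaffold that holds KAT8 and WDR5, and the complex is known for binding promoters of housekeeping genes. Several subunits also work elsewhere: KAT8 in the MSL complex, WDR5 in the SET1/MLL histone methyltransferases, MCRS1 in the INO80 chromatin remodeller, and HCF-1 (from Hcfc1) and OGT with each other and with many transcription factors. In the intestine, Lgr5+ stem cells divide throughout life and give rise to the absorptive and secretory cells of the epithelium, including the Paneth cells beside them.

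The libraries differed in depth and in composition. Totals ran from 8400458 to 21484679 counts per library. Mitochondrially encoded genes took 16.4% to 25.8% of the counts in the controls and 19.0% to 32.4% at KO day 3. Their share reached 66.9% to 72.1% at KO day 4. KO day 3 replicate 1 and KO day 4 replicate 3 stood apart from the other libraries of their groups. Levels are given in CPM, counts scaled to a common library size, after TMM normalization, which corrects for differences in composition, and fold changes come from edgeR's quasi-likelihood test, called at a Benjamini-Hochberg adjusted p under 0.05 over all tested genes. The 10 stem cell markers were present in every group. Their summed level, scaled as CPM over the counts of nuclear genes (nuclear CPM), was 18800 to 22732 in the controls and 12683 to 18307 at KO day 3. It was 2756 to 7566 at KO day 4, and 6 of 10 were called lower, beside 1537 of all 13405 tested genes. Summed levels of mast cell markers were at most 0.376 in the controls and 412 to 1144 at KO day 4, and those of Paneth cell markers were 23113 to 57366 in the controls and 124071 to 170889 at KO day 4. In bulk RNA, a change in the mix of cells and a change in RNA per cell cannot be told apart, and this holds for every value below.

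Kansl1 (chromosome 11, 104333229 to 104468861 on the minus strand, GRCm38), the targeted gene, was low in every KO day 3 library and spread widely at KO day 4. Control replicates 1, 2 and 3 had 4.46, 11.4 and 9.83 CPM, from 115, 344 and 219 counts. KO day 3 replicates had 2.81, 2.99 and 2.55 CPM, from 33, 69 and 72 counts. All 3 KO day 3 libraries lay below all 3 controls, although control replicate 1 was much nearer to them than the other two. That library also differed from the other controls in composition, with 57366 nuclear CPM of Paneth cell markers against 23950 and 23113, and a mitochondrial share of 25.8% against 16.4% and 17.8%; the part of this in its Kansl1 level was not tested. KO day 4 replicates had 2.93, 5.09 and 8.96 CPM, from 25, 32 and 40 counts. At KO day 4 the libraries reached from the KO day 3 level into the control range, so these groups overlapped. Counting error alone did not span that spread, since the exact 95% Poisson intervals were 1.90 to 4.33 CPM for replicate 1 and 6.40 to 12.2 CPM for replicate 3. Such intervals cover counting error only, here and for the shares below. The libraries labelled KO day 4 replicates 2 and 3 thus both held Kansl1 within the control range of 4.46 to 11.4 CPM. Of the controls, replicate 2 was above control replicate 1 only. Directions drawn from the KO day 4 group rest partly on these libraries.

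In edgeR, Kansl1 was 3.07-fold lower at KO day 3 than in the controls, a log2 fold change of −1.62 (SE 0.45, 95% interval −2.61 to −0.62, adjusted p = 0.12), and was not called. DESeq2 gave nearly the same size, −1.60, and called it (adjusted p = 0.0203), as did limma voom at −1.61 (adjusted p = 0.0414). The edgeR value at KO day 4 was −0.63 (SE 0.46, 95% interval −1.63 to 0.37, adjusted p = 0.345). The direct test of KO day 4 against KO day 3 gave 0.99 (SE 0.47, 95% interval −0.04 to 2.02, adjusted p = 0.182), so a difference between the times was not called. Over both KO times together the value was −1.12 (SE 0.37, 95% interval −1.94 to −0.30, edgeR adjusted p = 0.0718). Leaving out KO day 4 replicate 3, the KO library with the most Kansl1, gave −1.37, called in edgeR (adjusted p = 0.0253). Leaving out any of the other 8 libraries gave no call, with values from −1.43 to −0.86, and the weakest, without control replicate 2, had an edgeR adjusted p of 0.317. An exact two-sided permutation test of mean log2 CPM gave p = 0.1 at KO day 3, the smallest p that 3 against 3 libraries allow, and p = 0.0952 for both KO times against the controls, where the smallest possible was 0.0238. Counts were given per whole gene, and the sources used here do not name the exons that loxP flanked, so reads from exons outside the deletion stay in these values.

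**Figure D1:**
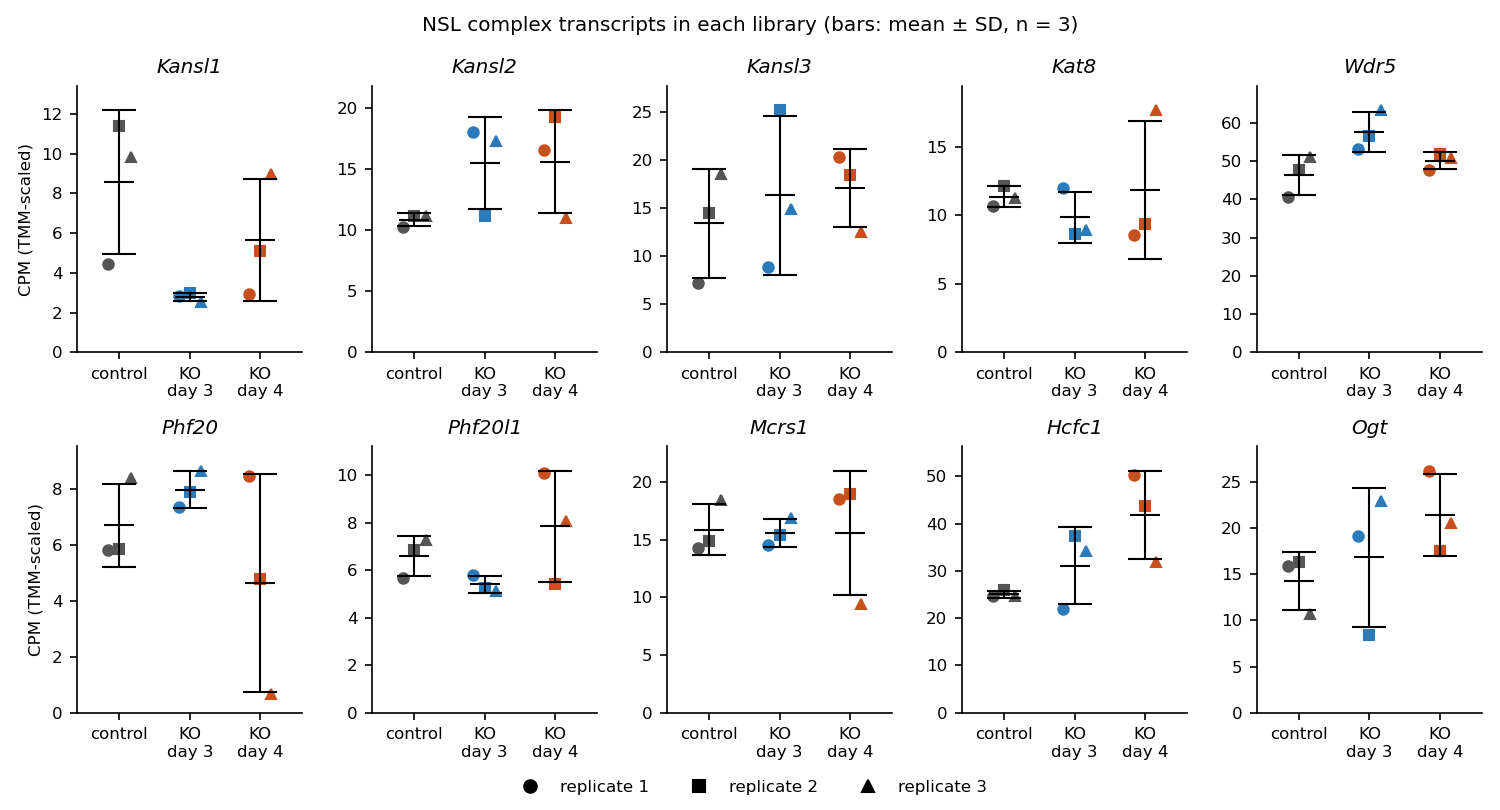
Level of each of the 10 NSL subunit genes in each library, in CPM after TMM scaling on linear axes that start at 0, 1 panel per gene; points are libraries, shaped by replicate and coloured by group, and bars are means ± SD (n = 3). Kansl1 lies at 2.55 to 2.99 CPM in the 3 KO day 3 libraries and between 2.93 and 8.96 CPM at KO day 4, and Phf20 has 1 KO day 4 library at 0.672 CPM.

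A measure that needs no scaling between libraries is the share of Kansl1 in the summed counts of the 10 subunits, and it was added after the levels had been seen. The controls had shares of 3.20%, 6.82% and 5.75%, a mean of 5.26% ± 1.86 (SD, n = 3). At KO day 3 the shares were 1.72%, 1.67% and 1.31%, a mean of 1.57% ± 0.225 (SD, n = 3). All 3 were below every control and close to one another. At KO day 4 they were 1.40%, 2.62% and 5.22%, a mean of 3.08% ± 1.95 (SD, n = 3). Replicate 3 had an exact 95% binomial interval of 3.76% to 7.04%, which lay above the interval of replicate 1, 0.908% to 2.06%. For both KO times against the controls the exact two-sided permutation test of the shares gave p = 0.0476. By share, 5 of the 6 KO libraries lay below every control. Within KO day 3 and KO day 4 alone the exact two-sided permutation test gave p = 0.1 and p = 0.2. The share also moves with the counts of the other subunits. KO day 4 replicate 2 was below control replicate 1 in share, 2.62% against 3.20%, but above it in CPM, 5.09 against 4.46. The summed level of the 10 subunits in these libraries was 194 and 139 CPM. For both KO times, the exact two-sided permutation test of mean log2 CPM gave p = 0.0952, so the result depended on the measure.

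**Figure D2:**
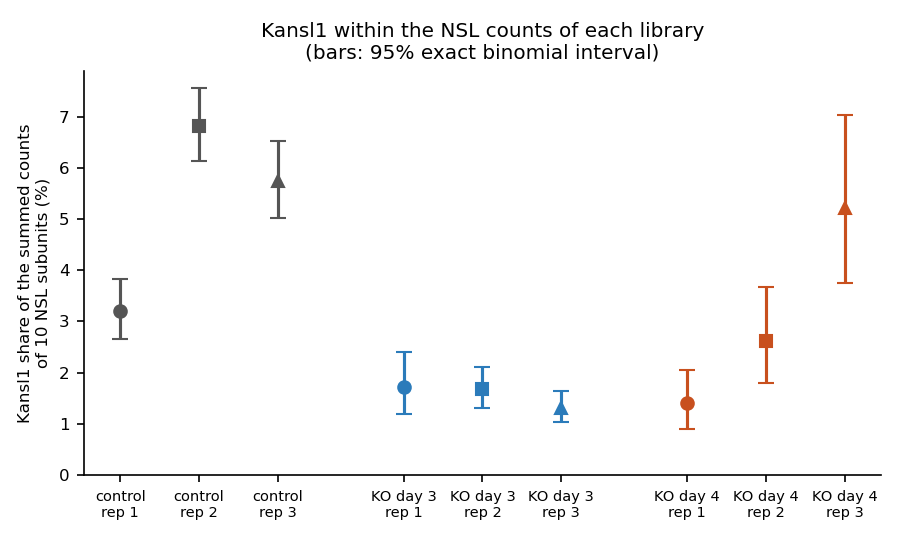
Kansl1 counts as a percent of the summed counts of the 10 NSL subunit genes, for each library, with exact 95% binomial intervals as bars. The 3 KO day 3 libraries lie at 1.31% to 1.72%, and the KO day 4 libraries run from 1.40% to 5.22%.

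Several lists of cell markers had an order inside the KO day 4 group that matched or mirrored that of Kansl1. Mast cell markers summed to 412, 755 and 1144 nuclear CPM in replicates 1, 2 and 3, the same order as the Kansl1 levels. Stem cell markers summed to 7566, 6568 and 2756 in those libraries, the opposite order. The mast cell order was shared by tuft (108, 146 and 292) and enteroendocrine cell markers (313, 406 and 451). Stromal markers (37.6, 39.0 and 70.3) and immune markers other than those of mast cells (55.4, 83.5 and 155) had it too. So did the mitochondrial share of the counts, at 66.9%, 69.3% and 72.1%. Depth had the opposite order, with 16943055, 13598780 and 11174583 total counts and 5614186, 4181353 and 3115374 counts of nuclear genes. An order of 3 libraries can match or mirror another without any link between them. Paneth cell markers (128328, 124071 and 170889), goblet cell markers (3257, 2991 and 5045) and enterocyte markers (49.7, 34.2 and 52.3) did not follow the order of Kansl1. Nor did mast cell markers at KO day 3, where replicate 1 had the most, 179 nuclear CPM, and its Kansl1 level lay between those of the other two. In the controls 5 of the 8 mast cell markers were at 0 and their summed level was 0.10 to 0.376, whereas 1 of 8 was at 0 in each KO group. Stromal markers summed to 2.40 to 5.80 in the controls and 37.6 to 70.3 at KO day 4, and immune markers other than those of mast cells to 3.10 to 7.53 and 55.4 to 155. The part of these cells, of the mitochondrial share or of depth in the Kansl1 values was not tested.

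Few of the 10 subunits were called in any comparison. At KO day 3, 0 of the 10 were called in edgeR, beside 0.44% of all tested genes. An unadjusted p under 0.05 in edgeR was met by 1 of 10, Kansl1, beside 15.8% of all tested genes, and DESeq2 and limma voom each called that 1, beside 6.53% and 10.6%. At KO day 4, 1 of the 10 was called, Hcfc1, which was higher. Beside it, 22.5% of all tested genes were called in either direction and 11.1% were called higher. An unadjusted p under 0.05 in edgeR was met by 1 of 10 there, beside 36.5%. DESeq2 and limma voom each called 1 of 10, beside 30.2% and 30.5%. KO day 4 against KO day 3 gave 0 of 10 in edgeR, beside 12.5%, with 0 at an unadjusted p under 0.05, beside 30.0%, and 0 in DESeq2 and limma voom, beside 21.5% and 12.3%. Both KO times against the controls gave 0 of 10 in edgeR, beside 12.8%, and 3 at an unadjusted p under 0.05, beside 29.3%. DESeq2 and limma voom each called 2 of 10 there, beside 21.3% and 30.6%, so these shares were near the background. The median log2 fold change of the 10 was 0.24 at KO day 3 and 0.18 at KO day 4, against −0.02 and −0.06 over all tested genes. Both comparisons used the same 3 controls.

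**Figure D3:**
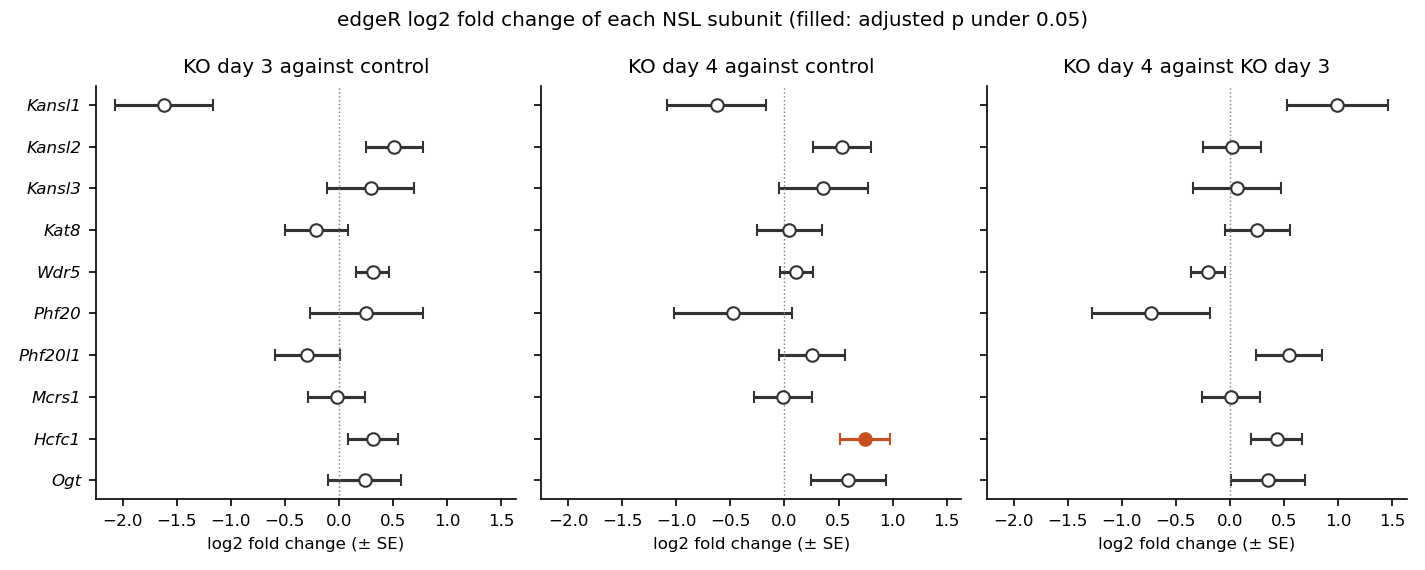
Log2 fold change of each NSL subunit gene from edgeR, with ± SE as bars, for KO day 3 and KO day 4 against the controls and for KO day 4 against KO day 3; filled points were called. Hcfc1 at KO day 4 (0.74) is the 1 filled point, and Kansl1 at KO day 3 (−1.62) is the farthest to the left.

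Kansl2 and Kansl3 encode structural subunits found in the NSL complex. Kansl2 (chromosome 15, 98517658 to 98534264) had 10.2, 11.1 and 11.2 CPM in the controls, 18.0, 11.2 and 17.3 at KO day 3, and 16.5, 19.2 and 11.0 at KO day 4. The KO day 3 libraries were all above the controls, replicate 2 by a margin too small to show at 3 digits, and KO day 4 replicate 3 was within the control range. Its log2 fold change was 0.51 (SE 0.26, 95% interval −0.06 to 1.09, edgeR adjusted p = 0.375) at KO day 3 and 0.53 (SE 0.27, 95% interval −0.06 to 1.12, adjusted p = 0.176) at KO day 4. Without the libraries that stood apart, the KO day 4 value was 0.72 and was called in edgeR (adjusted p = 0.0352). Those libraries were picked from these same data and include KO day 4 replicate 3, the lowest of its group for Kansl2. Kansl3 (chromosome 1, 36335730 to 36369181) was uneven within every group. It had 7.26, 14.4 and 18.5 CPM in the controls, 8.87, 25.2 and 15.0 at KO day 3, and 20.3, 18.4 and 12.5 at KO day 4. Its groups overlapped, with log2 fold changes of 0.29 (95% interval −0.59 to 1.17) and 0.36 (95% interval −0.54 to 1.26).

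Phf20 and Phf20l1 are paralogs that encode reader proteins with Tudor domains, which bind methylated lysines. Phf20 (chromosome 2, 156196466 to 156309952) had 5.82, 5.85 and 8.40 CPM in the controls and 7.33, 7.89 and 8.65 at KO day 3. KO day 4 replicates had 8.44, 4.77 and 0.672 CPM, and the last of these rested on 3 counts. The KO day 4 libraries thus ran from just above the control range to far below it. The log2 fold change was 0.25 (95% interval −0.89 to 1.40, edgeR adjusted p = 0.877) at KO day 3 and −0.47 (95% interval −1.67 to 0.72, adjusted p = 0.562) at KO day 4, and without KO day 4 replicate 3 the later value was −0.01. Phf20l1 (chromosome 15, 66577560 to 66647976) had 5.67, 6.84 and 7.28 CPM in the controls, 5.80, 5.24 and 5.14 at KO day 3, and 10.1, 5.41 and 8.06 at KO day 4. Its groups overlapped at both times, with log2 fold changes of −0.29 (95% interval −0.94 to 0.36) and 0.26 (95% interval −0.41 to 0.92). In KO day 4 replicate 3, where Phf20 was lowest, Phf20l1 was above every control, from 36 counts (exact 95% Poisson interval 5.65 to 11.2 CPM). In KO day 4 replicate 1, both genes had their highest levels of that group, so the 2 did not move in opposite directions throughout.

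Mcrs1 and Kat8 had fold changes close to 0. Mcrs1 (chromosome 15, 99242817 to 99251961) encodes a subunit shared with INO80. Its levels were 14.3, 14.9 and 18.4 CPM in the controls, 14.5, 15.4 and 16.9 at KO day 3, and 18.5, 18.9 and 9.40 at KO day 4. KO day 4 replicate 3 was the lowest of the 9 libraries, and log2 fold changes were −0.02 (95% interval −0.60 to 0.55) and −0.01 (95% interval −0.60 to 0.57). Kat8 (chromosome 7, 127912516 to 127925837), the catalytic subunit, had 10.7, 12.2 and 11.3 CPM in the controls, 12.0, 8.67 and 8.93 at KO day 3, and 8.56, 9.38 and 17.7 at KO day 4. Here KO day 4 replicate 3 was the highest of the 9. Its log2 fold changes were −0.21 (95% interval −0.85 to 0.43, edgeR adjusted p = 0.798) and 0.05 (95% interval −0.61 to 0.70, adjusted p = 0.932). Kat8 shares 122 exon bases with Prss8 on the opposite strand, a gene with 3988 counts over all libraries against 1698 for Kat8. No source used here says whether counting used strand, so reads of the shared bases cannot be told apart. For Mcrs1 the overlapping gene 1700120C14Rik had 34 counts.

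Wdr5 (chromosome 2, 27515157 to 27536535), the adaptor shared with the SET1/MLL complexes, had an SD of at most 11.4% of the mean in every group. Each other subunit exceeded that in at least 1 group. Wdr5 did not vary least within each group. In the controls Hcfc1 (2.96%), Kansl2 (5.06%) and Kat8 (6.57%) varied less. At KO day 3, beside 9.01% for Wdr5, so did Phf20l1 (6.56%), Mcrs1 (7.67%), Kansl1 (7.92%) and Phf20 (8.30%). Wdr5 had 40.6, 47.6 and 51.0 CPM in the controls, 53.1, 56.4 and 63.3 at KO day 3, and 47.6, 51.8 and 50.8 at KO day 4. The KO day 3 libraries were all above both other groups, which overlapped each other. Its log2 fold change was 0.31 at KO day 3 (SE 0.15, 95% interval −0.02 to 0.65, edgeR adjusted p = 0.347), 0.11 at KO day 4 (95% interval −0.23 to 0.45) and −0.20 between the KO times (95% interval −0.54 to 0.13, adjusted p = 0.408). None of these was called.

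Hcfc1 and Ogt lie on the X chromosome. HCF-1 is a transcriptional co-regulator that OGT cleaves, and OGT adds O-linked N-acetylglucosamine to nuclear and cytoplasmic proteins. Hcfc1 (73942792 to 73966357) was tight in the controls, at 24.6, 25.9 and 24.7 CPM. It had 21.8, 37.4 and 34.1 CPM at KO day 3, and 50.2, 43.7 and 31.8 CPM at KO day 4. All 3 KO day 4 libraries were above the controls, while KO day 3 replicate 1 was below them. Hcfc1 rose 1.67-fold at KO day 4, a log2 fold change of 0.74 (SE 0.23, 95% interval 0.23 to 1.25, edgeR adjusted p = 0.0404). At KO day 3 the value was 0.31 (95% interval −0.19 to 0.82, adjusted p = 0.56), and the direct test of KO day 4 against KO day 3 gave 0.43 (95% interval −0.08 to 0.94, adjusted p = 0.239), so the KO times were not shown to differ. The Hcfc1 call ended when any single control, KO day 3 replicate 3, or KO day 4 replicate 1 or 2 was left out. The edgeR adjusted p was then 0.0530 to 0.129. Without the 2 libraries that stood apart the call held at 0.90 (edgeR adjusted p = 0.00229). Those 2 were picked from these same data, and each had the lowest Hcfc1 level of its KO group. The call ended also with no filter on low counts (0.65, edgeR adjusted p = 0.0784). It ended too with nuclear genes scaled by library size without TMM, where the value was 0.24 (edgeR adjusted p = 0.48). Scaled by total counts alone, which moved the median of all tested genes at KO day 4 from −0.06 to −1.95, Hcfc1 was called lower at −1.13, which is above that median.

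**Figure D4:**
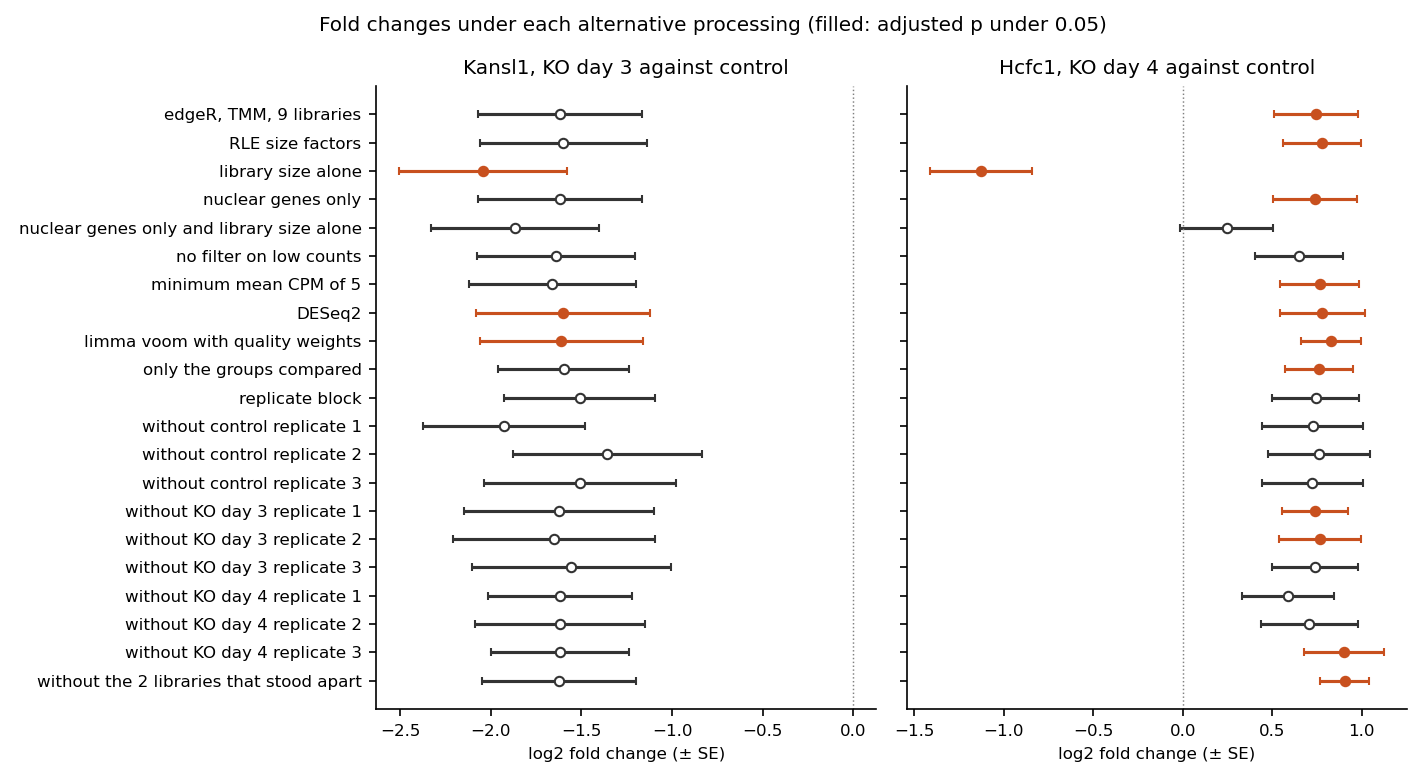
Log2 fold change with ± SE of Kansl1 at KO day 3 (left) and Hcfc1 at KO day 4 (right) against the controls, under the reported processing (top) and each alternative; filled points were called. Kansl1 lies between −2.04 and −1.36 under every setting shown, and Hcfc1 is below 0 only with scaling by library size alone, at −1.13 beside a reported 0.74.

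Ogt (101640060 to 101684351) had 15.9, 16.3 and 10.6 CPM in the controls, 19.2, 8.41 and 23.0 at KO day 3, and 26.3, 17.5 and 20.6 at KO day 4. All 3 KO day 4 libraries were above the controls, and the KO day 3 libraries fell on both sides of them. The log2 fold change was 0.24 (95% interval −0.51 to 0.98) at KO day 3 and 0.59 (SE 0.35, 95% interval −0.17 to 1.35, edgeR adjusted p = 0.242) at KO day 4, and it was not called.

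Groups that did not overlap made up a share of the subunits near or below that of all genes. At KO day 3, 3 of 10 had ranges apart from the controls, beside 30.1% of all tested genes: Kansl1 lower, beside 18.0%, and Kansl2 and Wdr5 higher, beside 12.1%. At KO day 4, 2 of 10 had ranges apart, Hcfc1 and Ogt, beside 47.0%; both were higher, beside 20.6%. Between the KO times it was 1 of 10, Wdr5, beside 32.8%; it was lower at KO day 4, beside 17.0%.

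Long transcripts as a class were more often called higher at KO day 4, and 2 subunits belong to that class, Hcfc1 with a longest transcript of 8262 bases and Phf20l1, which was not called, with 9383. Of the 623 tested genes with a longest transcript of at least 8000 bases, 20.1% were called higher and 2.73% lower, with a median log2 fold change of 0.44. Of the 3794 tested genes under 2000 bases, 9.30% were called higher and 12.9% lower, with a median of −0.16. The part of transcript length in the Hcfc1 value was not tested.

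Compared per kilobase of exon, the subunits differed widely in level. In the controls Wdr5 was highest at 12.9 ± 1.48 CPM per kb (SD, n = 3), at the 83.4th percentile of tested genes, and its lowest library was above every library of every other subunit. Mcrs1 and Kat8 followed at 4.53 ± 0.635 and 3.93 ± 0.259, overlapping each other, and both were above Hcfc1 at 3.00 ± 0.0889. Below them, Hcfc1, Kansl2 (2.87 ± 0.145), Kansl3 (1.99 ± 0.844), Ogt (1.78 ± 0.393), Kansl1 (1.24 ± 0.527) and Phf20 (0.670 ± 0.148) formed a run in which each overlapped the next. Phf20l1 was lowest at 0.378 ± 0.0477, at the 15.0th percentile and apart from Phf20. The order in the controls was the same when the longest transcript replaced the union of exons.

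The summed level of the 10 subunits depended on what it was divided by. After TMM scaling it was 159 ± 17.2 CPM in the controls, 179 ± 15.7 CPM in KO day 3 libraries and 192 ± 19.0 CPM in KO day 4 libraries (SD, n = 3 each). In the same order it was 337 ± 59.0, 324 ± 43.6 and 285 ± 36.6 nuclear CPM, and 272 ± 62.0, 234 ± 19.4 and 87.9 ± 18.5 CPM over all counts. The direction of the KO day 4 difference thus turned with the scaling, and mitochondrial counts moved with the last of the 3.

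The genes whose levels over the 9 libraries were most like those of Kansl1 were Ivd, Acsf3, Sirt2, Uevld and Gpr108. Likeness was the root mean square difference of centred log2 CPM over the 9 libraries. It was taken among 8039 genes with a mean of at least 5 CPM, and the median gene stood at 0.90. Genes with only a Gm, Rik, BC, AI or AC clone name, a pseudogene (-ps) name or an identifier were left out beforehand. Ivd, an enzyme of leucine breakdown, was nearest at 0.337, with mean levels of 18.8, 6.81 and 12.1 CPM in the control, KO day 3 and KO day 4 libraries. Sirt2, an NAD-dependent deacetylase, stood at 0.375, with 12.2, 3.10 and 7.52 CPM. Acsf3 stood at 0.372, Uevld at 0.377 and Gpr108 at 0.416. Each of the 5 was lowest at KO day 3 on average, which follows from choosing them for likeness to Kansl1, itself lowest there. Among the other subunits, Kat8 was nearest to Kansl1 at 0.631 and Phf20 furthest at 1.57.

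The complexes and partners that share subunits with NSL were described from lists of 52 genes, all of them tested. At KO day 3, 0 of 52 were called in edgeR, beside 0.44% of all tested genes, and 5 had an unadjusted p under 0.05, beside 15.8%. DESeq2 called 1 and limma voom 2, beside 6.53% and 10.6%. At KO day 4, 7 of 52 were called higher and 2 lower, 17.3% in all, beside 22.5% of all tested genes, so the share was not above the background. Leaving out single libraries moved the count of 9 to between 3 and 13, and that of all tested genes, 3021, to between 1588 and 3839.

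**Figure D5:**
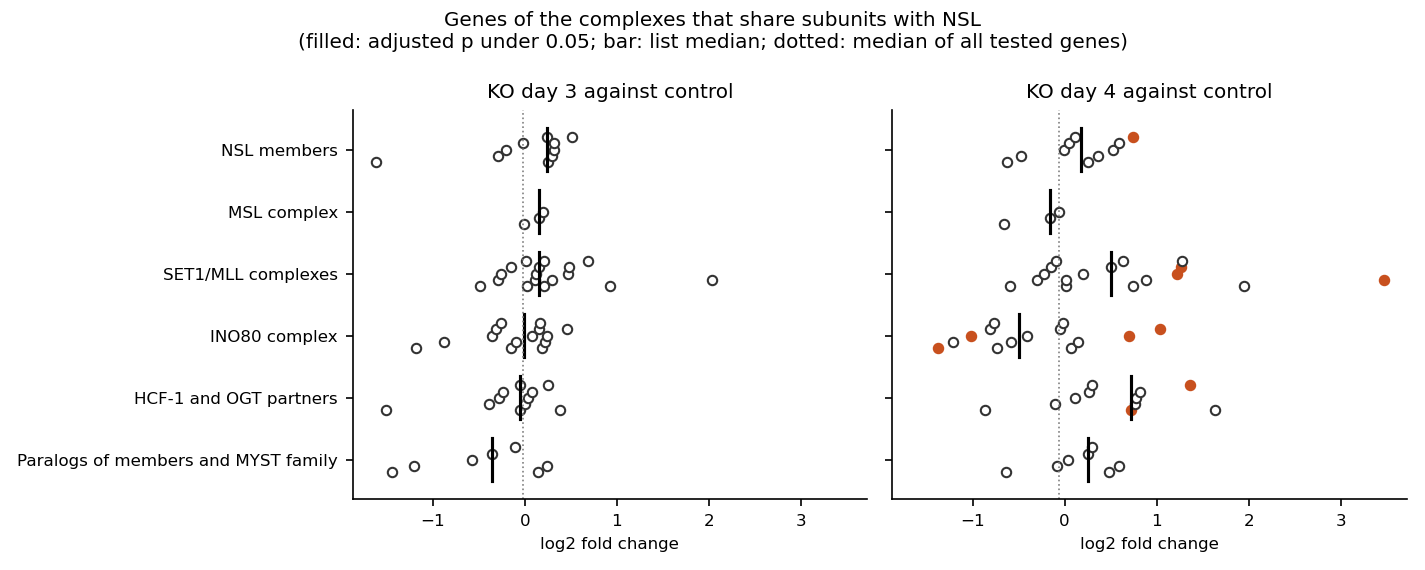
Log2 fold change at KO day 3 (left) and KO day 4 (right) against the controls for the NSL subunits and the lists of complexes and partners that share subunits with them; each point is a gene, filled where edgeR called it, the vertical bar is the list's median, and the dotted line is the median of all tested genes. No point is filled at KO day 3, and at KO day 4 the point farthest to the right is Kmt2d at 3.47, in the SET1/MLL list.

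Of 17 genes of the SET1/MLL complexes, which methylate histone H3 and use WDR5, 3 were called higher at KO day 4, beside 11.1% of all tested genes, and 0 lower, with a median log2 fold change of 0.50. Kmt2d, a methyltransferase of enhancers, had 1.94, 0.628 and 2.43 CPM in the controls, 2.64, 2.77 and 3.93 at KO day 3, and 14.7, 12.2 and 28.4 at KO day 4. Every KO day 4 library was far above the other 6, and Kmt2d rose by a log2 fold change of 3.47 in edgeR (SE 0.51, adjusted p = 0.00134). Kmt2b, a related methyltransferase, rose by 1.26 (adjusted p = 0.00672) in edgeR. Ncoa6, a subunit of the complexes of the KMT2C and KMT2D enzymes, rose by 1.22 (adjusted p = 0.0251), a call that ended when control replicate 1 or 3 or KO day 4 replicate 1 or 2 was left out (adjusted p from 0.0717 to 0.0989) and with nuclear genes without TMM (0.72, adjusted p = 0.133). The longest transcripts of Kmt2d and Kmt2b, at 19823 and 8469 bases, are in the class of at least 8000 bases, and that of Ncoa6 has 7101. Scaled by total counts alone, Kmt2b and Ncoa6 turned to −0.66 each, while Kmt2d stayed higher at 1.55.

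Of 14 genes of INO80, which shares MCRS1, 2 were called higher, beside 11.1% of all tested genes, and 2 lower, the 4 together beside 22.5% called in either direction, with a median of −0.49. Ino80d rose by 1.03 (edgeR adjusted p = 0.0273), and Uchl5, a deubiquitinase that associates with the complex, rose by 0.70 (adjusted p = 0.0202). Ino80b fell by 1.38 (adjusted p = 0.0364), from 9.51, 9.58 and 13.9 CPM in the controls to 4.10, 6.52 and 1.79 at KO day 4. Ino80e fell by 1.02 (adjusted p = 0.0264), with levels of 15.9, 18.2 and 14.8 CPM in the controls, 8.61, 4.77 and 8.15 at KO day 3, and 7.03, 9.86 and 7.17 at KO day 4. Every KO library of Ino80e was below every control. None of these 4 calls survived the loss of any single control (edgeR adjusted p from 0.0526 to 0.123). They ended without some KO day 4 libraries too: replicate 1 or 3 for Ino80b and Ino80e, replicate 3 for Ino80d and replicate 2 for Uchl5, and for Ino80b also without KO day 3 replicate 2. Nuclear genes without TMM gave 0.53 for Ino80d and 0.20 for Uchl5, both uncalled; these 2 calls ended with no filter as well, and that of Ino80b in limma voom (adjusted p = 0.0515). Ino80e shares 150 exon bases with Hirip3, which had 2029 counts, so part of its reads could belong to that gene. Ino80d, with a longest transcript of 13675 bases, is in the class of at least 8000. Scaled by total counts alone, Ino80d and Uchl5 turned to −0.86 and −1.19.

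Of 11 partners of HCF-1 and OGT, 2 were called higher at KO day 4, beside 11.1% of all tested genes, and 0 lower, with a median of 0.72. Tet3, a methylcytosine dioxygenase that binds OGT, had 6.37, 6.41 and 5.52 CPM in the controls, 4.60, 7.11 and 6.98 at KO day 3, and 17.5, 16.9 and 12.8 at KO day 4. Its KO day 4 libraries were all above the other 6, and it rose by 1.37 (edgeR adjusted p = 0.00513). Its longest transcript has 10904 bases and is in the class of at least 8000. Foxk2, a forkhead factor of the BAP1 complex, which also holds HCF-1, rose by 0.72 (adjusted p = 0.0334). The Foxk2 call ended when any control or KO day 4 replicate 2 or 3 was left out (edgeR adjusted p from 0.0546 to 0.118), with no filter (0.62) and with nuclear genes without TMM (0.20). Tet3 and Foxk2 turned to −0.51 and −1.20 with scaling by total counts alone.

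None of the 3 MSL genes, the other complex of KAT8, was called at KO day 4 by edgeR, DESeq2 or limma voom, beside 22.5%, 30.2% and 30.5% of all tested genes. In edgeR 1 of the 3 had an unadjusted p under 0.05, beside 36.5%, and the median was −0.16. Msl2, its ubiquitin ligase, had 39.2, 35.9 and 33.0 CPM in the controls and 32.2, 21.1 and 14.3 at KO day 4, apart from them (−0.66, 95% interval −1.24 to −0.08, edgeR adjusted p = 0.0922). Msl1, its scaffold, had means of 21.6 CPM in the controls and 20.7 at KO day 4 (−0.06, 95% interval −0.51 to 0.39). None of the 7 paralogs of the subunits and other MYST acetyltransferases was called at KO day 4 against the controls by these tools or had an unadjusted p under 0.05 in edgeR there. Between the KO times DESeq2 called 2 of the 7, beside 21.5% of all tested genes. EdgeR and limma voom called 0, beside 12.5% and 12.3%. An unadjusted p under 0.05 in edgeR was met by 2 of the 7, beside 30.0%. Kat7 and Kat5 had the highest levels, with means of 31.2 and 10.7 CPM in the controls and 38.2 and 10.2 at KO day 4. Kansl1l, the paralog of Kansl1, was named here after its values were seen. Its mean in the controls was 3.85 CPM, with 3.56 CPM at KO day 3 and 2.52 CPM at KO day 4 (−0.64, 95% interval −1.86 to 0.59). Kansl1l shares 558 exon bases with Rpe on the opposite strand, which had 4172 counts over all libraries against 592 for Kansl1l. Kat5 shares 426 with Rnaseh2c, also on the opposite strand, which had 5758 counts against 1581 for Kat5. Part of the reads of Kansl1l and Kat5 could belong to those genes.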

How the data were processed

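Sorted Lgr5-GFP+ cells gave 9 libraries in 3 groups of 3. The authors deposited raw counts per Ensembl gene, unnormalized and unpooled. HISAT2 2.0.4 and GRCm38 were used, per the submitters' processing notes; counting tool, strand setting and annotation: not given in the sources used here. Per the labels' protocols, mRNA was isolated from DNase-treated total RNA. GENCODE M21 named 51933 of 57180 identifiers. Oga was matched by its older symbol Mgea5.

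Counts were tested with edgeR 4.0.16 (R 4.3.3): filterByExpr at defaults (a minimum count of 10, a minimum total of 15), TMM, glmQLFit and glmQLFTest over all 9 libraries, Benjamini-Hochberg adjustment over 13405 genes and a threshold of 0.05. The SE is the absolute log2 fold change over the square root of F, and 95% intervals use the t distribution. Means are of CPM. Log2 CPM used a prior count of 2. The scripts were tested on simulated data. Depth limits low genes: Kansl1 had 25 to 344 counts per library.

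Named genes were the 10 subunits and, in each other list, up to 4 called genes, smallest p first, or the 2 of highest CPM. The 5 genes nearest Kansl1 were named too, among those of at least 5 mean CPM. Genes with clone-type, pseudogene or identifier-only names were left out of that last choice. Members and lists were chosen with earlier results of these data known. Alternatives were relative log expression scaling, total counts alone, nuclear genes with and without TMM, no filter, a mean of at least 5 CPM, DESeq2 1.42.0, limma 3.58.1 voom with quality weights, only the groups compared, a replicate block, each library left out, and the 2 apart left out. Markers of other cells, in CPM over the counts of nuclear genes, were goblet (1675 to 2092 in the controls, 2991 to 5045 at KO day 4), enteroendocrine (38.4 to 117, 313 to 451), tuft (6.65 to 7.68, 108 to 292), enterocyte (47.4 to 83.7, 34.2 to 52.3) and red blood cells (0.143 to 2.10, 0).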

Additional observations from a re-analysis of the deposited data

Results flagged for a closer look

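Of the 52 partner genes, 5 differed between the KO times by edgeR's direct test of KO day 4 against KO day 3, so their changes from the shared controls were not the same at both times. Kmt2d was higher at KO day 4 by 2.54 on the log2 scale (SE 0.49, adjusted p = 0.00987). Ino80d was higher by 1.35 (adjusted p = 0.0162), Tet3 by 1.33 (adjusted p = 0.0115) and Kmt2b by 1.05 (adjusted p = 0.0266), each at KO day 4 in edgeR. The Kmt2b call ended with only the groups compared (adjusted p = 0.0656), with nuclear genes without TMM (edgeR adjusted p = 0.0643) and without replicate 2 or 3 of either KO group (edgeR adjusted p from 0.0521 to 0.0872). The Ino80d call ended without KO day 3 replicate 2 (edgeR adjusted p = 0.0601), and that of Kmt2d with total counts alone (0.99, edgeR adjusted p = 0.0871). Tet2 was higher by 3.15 (edgeR adjusted p = 0.0487), but it had 0 to 24 counts per library, and its call ended under 14 of the 18 alternatives that gave a value. The 5 are 9.62% of the 52 genes, beside 12.5% of all tested genes called in that comparison. None of the 10 subunits was called there.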

How the results depend on the processing

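For the subunits, 740 of 790 values under other settings kept their side of the threshold without a reversal. Another 17 reversed, 9 lost a call and 24 gained one. A change of sign where neither value was called was not counted as a reversal, and the 740 include 77 such values. For the named partner genes, 253 of 335 called values stayed called in the same direction, 10 reversed and 72 lost the call. Every reversal came with scaling by total counts alone, where the median of all tested genes at KO day 4 was −1.95. Under it, at KO day 4 against the controls, values were −1.13 for Hcfc1, −1.35 for Kansl2, −1.56 for Kansl3, −1.89 for Kat8, −1.28 for Ogt, −1.64 for Phf20l1, −1.80 for Wdr5, −1.20 for Foxk2, −0.86 for Ino80d, −0.66 for Kmt2b and Ncoa6, −0.51 for Tet3 and −1.19 for Uchl5. Against KO day 3 they were −1.05 for Hcfc1, −1.50 for Kansl2, −1.40 for Kansl3, −1.31 for Kat8, −1.48 for Mcrs1, −1.18 for Ogt, −0.96 for Phf20l1, −0.20 for Ino80d, −0.49 for Kmt2b and −0.17 for Tet3. Over both KO times they were −0.60 for Hcfc1, −0.86 for Kansl3, −0.94 for Wdr5 and −0.55 for Uchl5. Under it Kansl1 was called at KO day 3 (−2.04), KO day 4 (−2.61) and both times (−2.33), and it called 10, 1, 9 and 8 subunits at KO day 4, at KO day 3, between the KO times and over both, with 46, 1 and 38 partner genes in the first 3. In the same order, it called 11057, 518, 9508 and 9914 of all 13405 tested genes. Kansl1 was also called at KO day 3 by DESeq2 (−1.60) and limma voom (−1.61), and over both times with nuclear genes and no TMM (−1.52), no filter (−1.19), DESeq2 (−1.09), limma voom (−1.30) and without the 2 libraries that stood apart (−1.37). Nuclear genes without TMM and no filter each left 0 subunits called at KO day 4 and 1 over both times, DESeq2 and limma voom 2 over both times and 1 at KO day 3, and leaving out the 2 libraries 2 at KO day 4 and 2 over both. Of all tested genes, nuclear genes without TMM called 5086 of 13393 at KO day 4 and 3403 over both times. No filter called 1549 higher and 1847 lower of 23505 at KO day 4, and 725 and 1175 over both. DESeq2 and limma voom called 21.3% and 30.6% over both times, and 6.53% and 10.6% at KO day 3. Without the 2 libraries, 1932 were called higher and 2180 lower of 13660 at KO day 4, and 3440 in all over both times. Partner genes called at KO day 4 numbered 20 with nuclear genes and no TMM, 16 with DESeq2, 14 with limma voom and 16 without the 2 libraries. All tested genes called there were 5086 of 13393 with nuclear genes and no TMM, 30.2% with DESeq2 and 30.5% with limma voom. Those without the 2 libraries are given above. At KO day 3 partner genes called numbered 1 with nuclear genes and no TMM, no filter, DESeq2 or without the 2 libraries, and 2 with limma voom. Between the KO times they numbered 8 with nuclear genes and no TMM, 10 with DESeq2 and 3 with only the groups compared. All tested genes called at KO day 3 were 267 of 13393 with nuclear genes and no TMM and 317 of 23505 with no filter. They were 646 of 13660 without the 2 libraries, and 6.53% and 10.6% with DESeq2 and limma voom. Between the KO times, in the order above, they were 2735 of 13393, 21.5% and 806 of 12285. Leaving out each library gave Kansl1 −1.93 to −1.36 at KO day 3, −1.11 to −0.31 at KO day 4, 0.51 to 1.31 between the times and −1.43 to −0.86 over both; 0 to 1 subunits called at KO day 4 and over both times; and 3 to 13, 0 to 1 and 2 to 7 partner genes at KO day 4, KO day 3 and between the times. All genes called ranged over the settings from 0 to 1423 at KO day 3, 1588 to 11057 at KO day 4, 648 to 9508 between the times and 329 to 9914 over both, against 59, 3021, 1682 and 1715. The cause of these differences was not tested.

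With the replicate number as a block, Hcfc1 at KO day 4 stayed at 0.74 and lost its call (edgeR adjusted p = 0.0605). This left 0 subunits called, beside 1320 higher and 1360 lower of 13405 tested genes. Ino80b (−1.48) and Ino80e (−1.02) lost their calls there. Kansl1 was −1.51 at KO day 3 and −0.62 at KO day 4. The correlations do not settle whether the numbers pair the libraries. In their deviations from group means, same-numbered libraries correlated at −0.05 to 0.13 and other pairs at −0.09 to 0.09. The highest value was that of control replicate 3 with KO day 3 replicate 3. Of the 9 libraries, 5 correlated best with their own number.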

Other observations

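Between the shortest and the longest transcripts, the share of tested genes called higher at KO day 4 was 9.66% for 2000 to 3999 bases, 12.3% for 4000 to 5999 and 16.3% for 6000 to 7999. The shares called lower in these classes were 14.6%, 8.25% and 5.37%, and the median log2 fold changes −0.16, 0.04 and 0.28. Genes sharing a class are not independent replicates, and the class of a gene was read from its longest transcript in GENCODE M21.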
